A study of Mus musculus with 6 samples.

Results

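Imprinted genes that are active in fetal organs were followed in the whole pancreas of Hox6 null and control mouse embryos at E12.5, a stage of early branching. The 10 genes considered were Dlk1, Meg3, H19, Peg3, Plagl1, Grb10, Mest, Nnat, Peg10 and Zim1, chosen as imprinted fetal genes other than Igf2, Igf2r and Cdkn1c. Every probe set (a group of array probes read out as a single value) whose platform annotation gave 1 of these symbols alone was taken. This gave 28 of 45037 probe sets and 9 of 18193 genes. H19 had no probe set of its own, since its single probe set was also named for the microRNA gene Mir675 inside it, and H19 was not analysed here. There were 3 Hox6 null and 3 control samples, each on 1 array. All were of strain Bl6 per the labels, and the controls were wild type. Hox6 stands for Hoxa6, Hoxb6 and Hoxc6, a paralogous set of homeobox transcription factor genes, and the mutated region of each is not given in the labels. The samples are called biological replicates without the number of embryos in each, their litters or their sex, so a p-value here measures sample-to-sample spread only.

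An imprinted gene is transcribed from a single parental allele, chosen by DNA methylation set in the egg or sperm. Paternally expressed members such as Dlk1, Peg3, Plagl1, Mest and Peg10 are known mostly as promoters of fetal or placental growth, whereas the maternally expressed Grb10 restrains it. Several members lie in shared imprinted domains: Dlk1 with the noncoding RNAs Meg3, Rian and Mirg, and Peg3 with Usp29 and Zim1. The arrays measured total RNA of each gene and did not separate the parental alleles.

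The start regions of Meg3 and Peg3 are shown because Meg3 had the most probe sets and the largest differences, and because these windows were the only 2 of the 12 member windows with a cAMP response element (TGACGTCA). Each window holds 250 bases before and 50 bases after a RefSeq transcription start (build GRCm38.p6), and 8 members had at least 1 window. The strand printed is that of the gene. Capitals mark any of 3 motifs searched on both strands: TGACGTCA, the site of CREB factors, TGCCGC, the hexamer that the imprint-protecting protein Zfp57 binds when methylated, and GGGGCCCC, a site of the Plagl1 protein. TGCCGC reads GCGGCA on the opposite strand, the other motifs are palindromes, and no motif found here overlapped another.
Meg3, chr12:109540746-109541045, plus strand: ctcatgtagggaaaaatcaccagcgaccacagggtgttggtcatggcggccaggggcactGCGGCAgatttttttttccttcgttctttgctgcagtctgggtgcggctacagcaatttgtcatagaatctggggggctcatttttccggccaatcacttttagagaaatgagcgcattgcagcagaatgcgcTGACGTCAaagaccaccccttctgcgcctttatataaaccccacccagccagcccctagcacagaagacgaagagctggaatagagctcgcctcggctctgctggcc
Peg3, chr7:6730370-6730669, minus strand: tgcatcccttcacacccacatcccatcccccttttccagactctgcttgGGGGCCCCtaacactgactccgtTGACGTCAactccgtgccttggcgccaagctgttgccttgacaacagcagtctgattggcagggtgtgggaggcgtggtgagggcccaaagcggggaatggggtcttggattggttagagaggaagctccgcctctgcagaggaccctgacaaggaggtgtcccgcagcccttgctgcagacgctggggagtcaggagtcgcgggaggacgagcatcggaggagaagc
TGACGTCA began at base 194 of the Meg3 window and at base 73 of the Peg3 window, and it was found in 1.79% of all 32851 windows of this length. TGCCGC was found in 7 of the 12 member windows, of genes Meg3, Plagl1, Grb10, Mest, Nnat and Zim1, against 11.6% of all windows. Of these 7, 2 were overlapping windows of Mest. GGGGCCCC was found in the Peg3 window alone among the 12, at base 50, against 1.08% of all windows. A match is a stretch of letters and says nothing of whether a factor bound there.

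Values are log2 levels, in which 1 unit is a doubling, and differences are Hox6 null minus control. The arrays did not form groups of like spread. Pearson correlations across probe sets were 0.980 to 0.987 between null arrays, 0.979 to 0.990 between a null and a control array, and 0.994 to 0.995 between control arrays. On the first principal component, which held 46.6% of the variance, null 1 and null 2 lay on one side and null 3 lay with the controls. The targeted gene Hoxb6 read 8.25, 8.71 and 8.91 in null 1, 2 and 3, against 8.78, 8.97 and 9.36 in control 1, 2 and 3, with overlapping groups. Of the 3 Hoxc6 probe sets, 1 was higher in every null array (+0.73, adjusted p = 0.253, limma) and 2 overlapped. The higher one was dim, at 4.63, 4.59 and 5.38 in null arrays against 4.24, 3.91 and 4.25 in controls. Values of Hoxa6 are not given here. Because the mutated regions are not given, these values do not check the genotype labels.

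With limma over all 45037 probe sets, 0 of the 28 member probe sets passed an adjusted p of 0.05 in Hox6 null pancreas, and the smallest adjusted p among them was 0.242. The background was 0.00222% of probe sets called (1 of 45037). At an unadjusted p under 0.05 there were 4 of 28, all higher, against 15% of all probe sets, and without variance moderation there were also 4. Of the 28, 25 had a positive difference, with a median of +0.12, whereas over all probe sets the share was 57.3% and the median +0.042. With other scalings fewer of the 28 were positive, 21 after repeated quantile normalization and 23 after median centring. The median over all probe sets was also lower there, at +0.013 and +0.030. The differences ran from -0.14 to +0.57. Of the 28, 11 belong to Meg3, and probe sets of a gene read the same RNA, so the count of 25 is not one of independent observations. With a single probe set per gene, 7 of 9 were positive (56% of all genes), with a median of +0.084 (+0.033 over all genes). The groups did not overlap for 5 probe sets that were higher in every null array (12.1% of all probe sets) and for 1 that was lower (9.89%). For the 9 probe sets with the highest mean of their gene (called main below), the 95% intervals of the difference reached down to -0.40 (Nnat) and up to +0.60 (Zim1). All intervals rest on 3 arrays a group. In mean level the main probe sets stood above 88.7% (Zim1) to 99.8% (Mest) of all probe sets. Shares over all probe sets are thus mostly those of dimmer ones. Of the 5084 probe sets at least as bright as the dimmest main one, 2325 were positive, with a median of -0.017. Of these 5084, 550 were higher and 839 lower in every null array, and 447 had an unadjusted p under 0.05 (limma). Whether such bright signals understate differences was not tested.

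**Figure D1:**
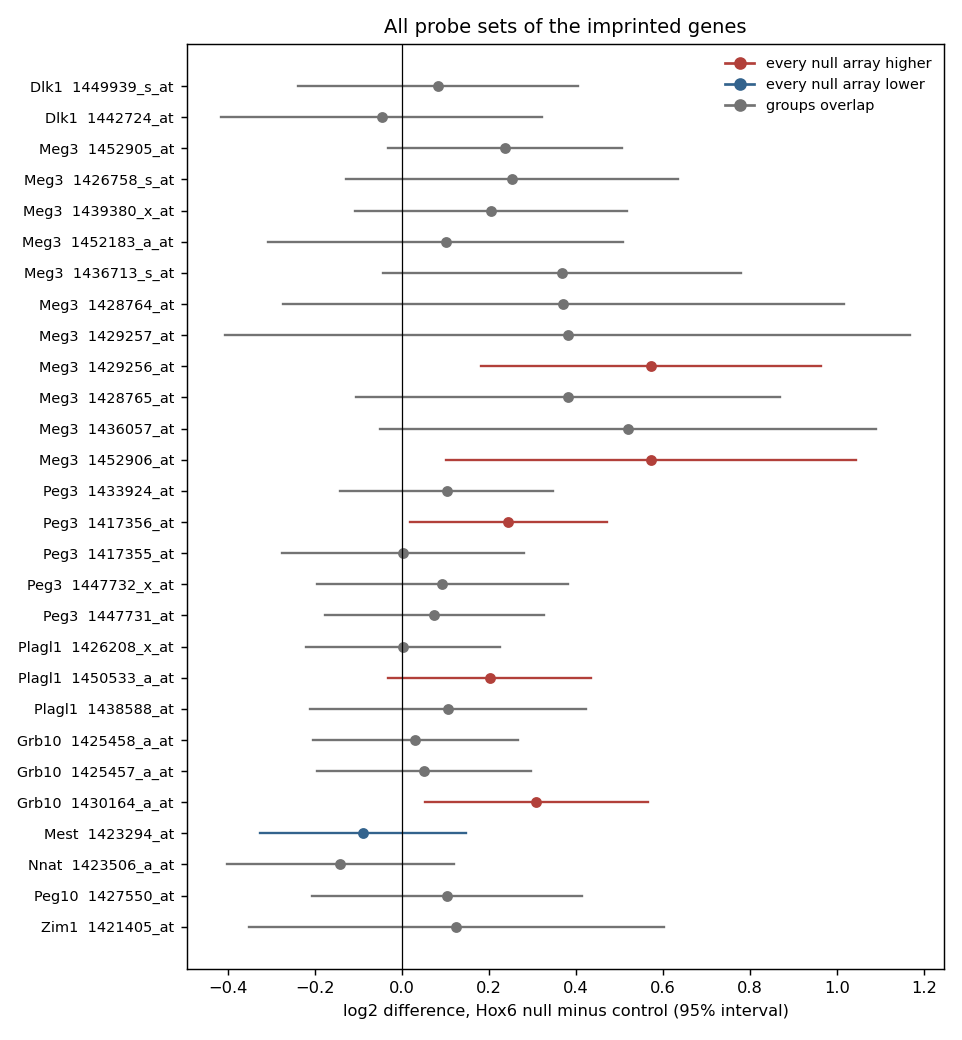
Difference in log2 level, Hox6 null minus control, for each of the 28 member probe sets (points) with 95% intervals from limma (lines). Red marks 5 probe sets with every null array above every control array, blue the 1 with every null array below, and grey the 22 that overlap; the 11 Meg3 probe sets are all right of 0.

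Among paternally expressed members, Dlk1 encodes a transmembrane protein with EGF-like repeats known in fetal liver, mesenchyme and endocrine cells. Its main probe set read 12.29, 12.33 and 11.90 in null 1, 2 and 3, against 12.09, 12.07 and 12.11 in the controls. Null 1 and null 2 lay above all controls and null 3 below all of them, so that the groups overlapped with a mean difference of only +0.084 ± 0.14 (SE; adjusted p = 0.788, limma). The control values lay within 0.038 of each other, whereas the null values spread over 0.43. The other Dlk1 probe set had the same order for null 2 and null 3 (8.12 and 7.56, with 7.82 in null 1), against 7.819, 8.004 and 7.804 in the controls, and differed by -0.046.

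Peg3, a zinc finger protein, had 3 well measured probe sets and 2 that read under 3.4 in every array, where a difference carries little weight. The main one read 12.22, 12.20 and 12.12 in null arrays against 12.05, 12.18 and 12.00 in controls, a difference of +0.10 ± 0.10 (SE; adjusted p = 0.651, limma). A second probe set read 11.86, 11.93 and 11.82 in null arrays against 11.64, 11.65 and 11.59 in controls. Here every null array was higher, null 3 included, by a mean of +0.24 ± 0.097 (SE; adjusted p = 0.311, limma). The third differed by +0.0036 with overlapping groups, so the probe sets of the gene disagreed in size.

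Plagl1 is a zinc finger transcription factor known in mouse to activate other imprinted genes. Its main probe set was nearly flat, at 12.32, 12.30 and 12.38 in null arrays against 12.33, 12.34 and 12.32 in controls. The difference was +0.0025 with a 95% interval of -0.22 to +0.23, and its sign turned with repeated quantile normalization, median centring or array weights. The second probe set read 10.62, 10.73 and 10.73 in null arrays against 10.51, 10.43 and 10.53 in controls, higher in every null array by a mean of +0.20 ± 0.10 (SE; adjusted p = 0.383, limma). The third gave +0.11 with overlap.

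Mest, a hydrolase-like protein of fetal mesoderm, was the single member below every control in all null arrays. It read 12.52, 12.39 and 12.57 in null arrays against 12.57, 12.58 and 12.59 in controls, a difference of -0.089 ± 0.10 (SE; adjusted p = 0.690, limma). The gap between null 3 and the lowest control was small beside the null range of 0.18. Nnat, a small membrane proteolipid of neurons and endocrine cells, read 12.27, 12.16 and 12.42 in null arrays against 12.499, 12.399 and 12.374 in controls. It differed by -0.14 ± 0.11 (SE; adjusted p = 0.561, limma), with null 1 and null 2 below the controls and null 3 among them. Peg10, a retrotransposon-derived gene needed for the placenta, read 10.58, 10.65 and 10.60 in null arrays against 10.54, 10.71 and 10.27 in controls (+0.10 ± 0.13, SE; adjusted p = 0.724, limma). Here the controls spread more widely than the null arrays.

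**Figure D2:**
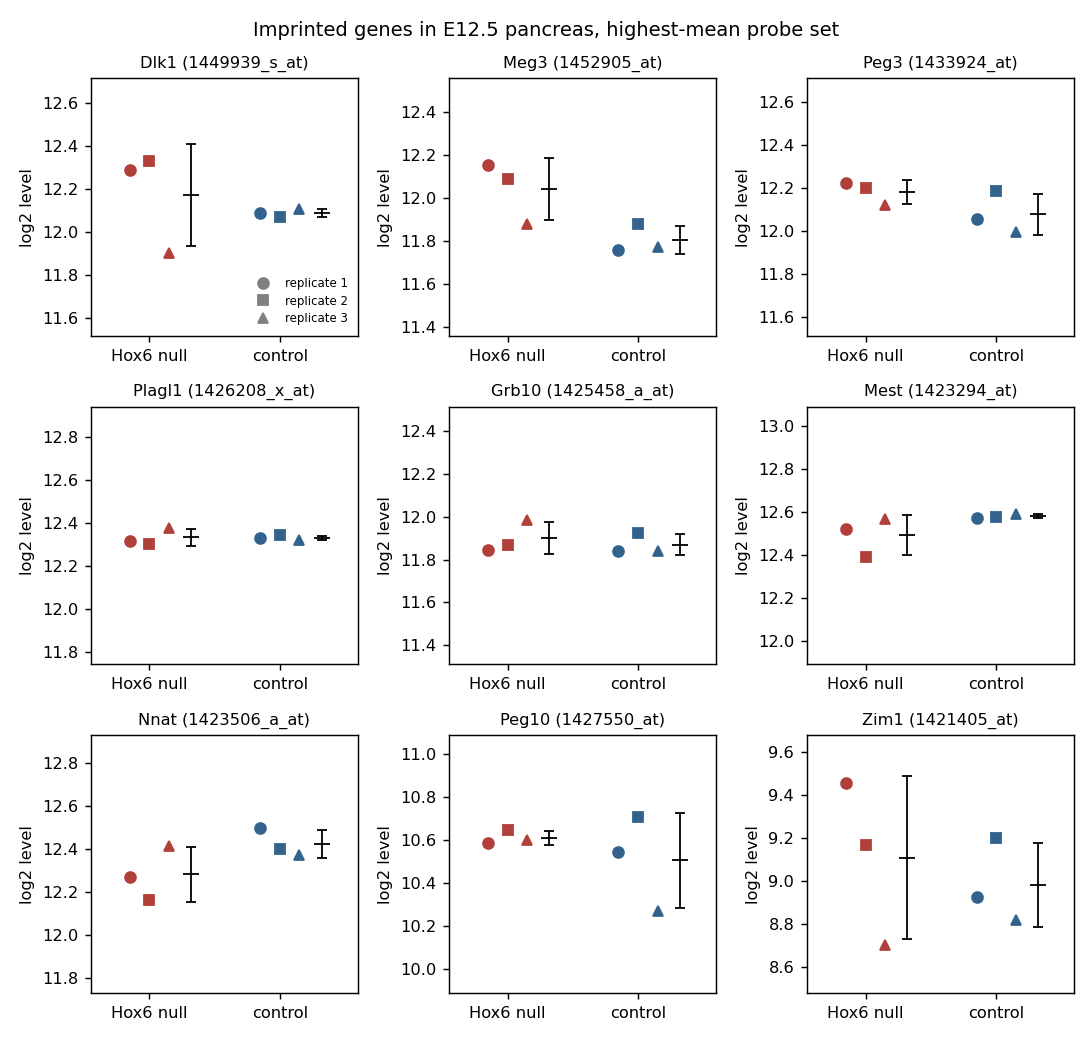
Log2 level in each array for the highest-mean probe set of the 9 measured members, Hox6 null in red and control in blue, with symbols for replicates and black bars for mean ± SD (n = 3 each). All panels span 1.2 log2 units; null 3 of Dlk1 (11.90) and of Zim1 (8.70) lies below the controls while null 1 lies above them, and Plagl1 is nearly flat.

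Maternally expressed members were Grb10, Zim1 and Meg3. Grb10, an adaptor protein that dampens insulin and IGF receptor signalling, read 11.85, 11.87 and 11.98 on its main probe set in null arrays against 11.84, 11.93 and 11.84 in controls, a difference of +0.031 with a 95% interval of -0.20 to +0.27 that turned to -0.0078 with repeated quantile normalization. A second probe set gave +0.051 with overlap. The third read 11.15, 11.05 and 11.24 in null arrays against 10.88, 10.90 and 10.72 in controls, higher in every null array by a mean of +0.31 ± 0.11 (SE; adjusted p = 0.283, limma). Which transcript each of them reads was not analysed here. Zim1, a zinc finger gene of the Peg3 domain, read 9.46, 9.17 and 8.70 in null arrays against 8.93, 9.20 and 8.82 in controls. Null 1 was the highest array and null 3 the lowest, and the mean difference of +0.13 ± 0.20 (SE; adjusted p = 0.786, limma) was smaller than its error.

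Meg3, a long noncoding RNA of the Dlk1 domain, was above the control mean on all 11 of its probe sets (57.3% of all probe sets). The differences ran from +0.10 to +0.57 with a median of +0.37, and none passed (smallest adjusted p = 0.242, limma). At an unadjusted p under 0.05 there were 2 of the 11 (limma), against 15% of all probe sets. The same 2 were higher in every null array, against 12.1% of all probe sets. The main probe set read 12.15, 12.09 and 11.88 in null arrays against 11.76, 11.88 and 11.77 in controls, a difference of +0.24 ± 0.12 (SE; adjusted p = 0.377, limma). Null 1 and null 2 were above every control and null 3 was level with control 2. On the 2 probe sets without overlap, the null arrays read 8.18, 8.20 and 7.78 against 7.37, 7.74 and 7.33 in controls (+0.57 ± 0.17, SE; adjusted p = 0.242, limma), and 7.89, 7.42 and 7.14 against 6.84, 7.12 and 6.77 (+0.57 ± 0.20, SE; adjusted p = 0.281, limma). The 4 Meg3 probe sets with a mean level above 11, a split made after the values were seen, differed by +0.10 to +0.25, and the other 7 by +0.37 to +0.57. Null 3 was the lowest null array on all 11 (37.6% of all probe sets), and on 7 of them it lay within the control range. The median deviation of the 11 from the control mean was +0.68 in null 1, +0.49 in null 2 and -0.020 in null 3. Without null 3 the differences were +0.24 to +0.78, and the smallest adjusted p was 0.0528 (limma). Leaving out null 3 raised the count called over all 45037 probe sets from 1 to 1902 (limma), so the fall in adjusted p was not particular to Meg3. On each of the 3 Meg3 probe sets given by array, control 2 was the highest control.

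Rian and Mirg, RNAs of the Dlk1 domain picked by position after values were seen, also had null 3 as lowest null array on every probe set. Values of Rtl1 and Dio3, also of this domain, are not given here. Rian, which hosts small nucleolar RNAs, had 4 positive probe sets out of 4 (+0.16 to +0.31), and Mirg, which hosts microRNAs, had 2 of 2 (+0.37 and +0.42). On its main probe set Mirg read 9.71, 9.79 and 8.83 in null arrays against 8.99, 9.19 and 9.03 in controls (+0.37 ± 0.25, SE; adjusted p = 0.498, limma), so null 3 was below every control. The main probe set of Rian read 12.16, 12.13 and 11.88 in null arrays against 11.96, 11.84 and 11.85 in controls (+0.17 ± 0.12, SE; adjusted p = 0.503, limma). Over the 3 RNAs together, 17 of 17 probe sets were positive (57.3% of all probe sets). Null 1 and null 2 were both above every control on 16 (25%), and null 3 was the lowest null array on 17 (37.6%). Of the 17, 0 passed and 2 had an unadjusted p under 0.05 (limma), against 15% of all probe sets. Since 11 of the 17 read Meg3 and the rest Rian or Mirg, these counts are not of independent observations. Dlk1 itself shared the low null 3.

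**Figure D3:**
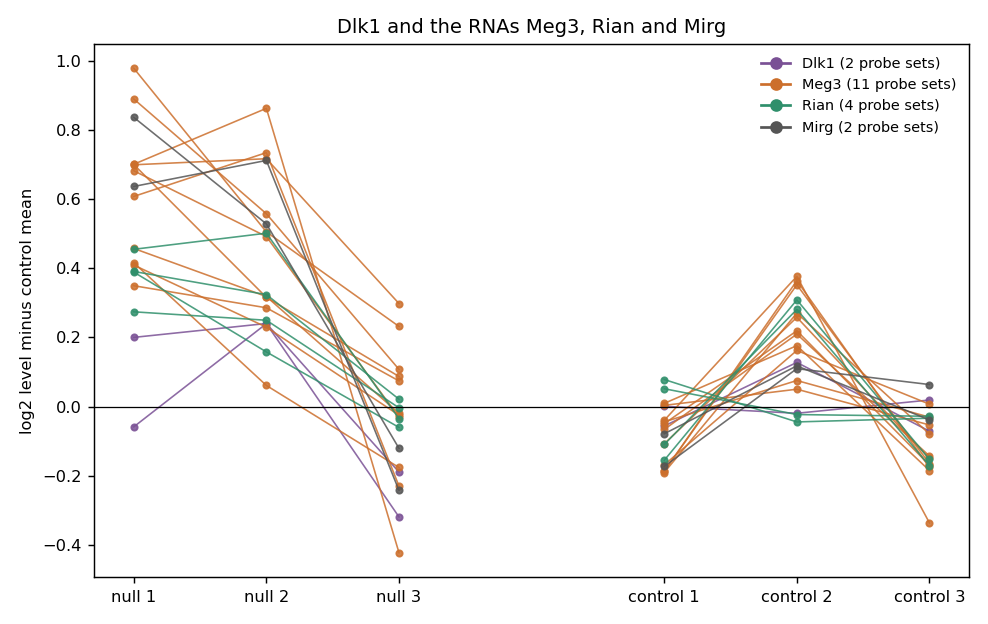
Log2 level minus the control mean of the same probe set, for each array, of Dlk1 (2 probe sets), Meg3 (11), Rian (4) and Mirg (2); a line joins the values of a probe set and stands for no order among replicates. Null 1 and null 2 lie mostly above 0, null 3 around or below it, and control 2 is the highest control for most Meg3 probe sets.

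In the other member loci the neighbours differed in direction, and none passed. Usp29, a ubiquitin protease gene beside Peg3, read 9.79, 9.62 and 9.48 in null arrays against 9.26, 9.34 and 9.14 in controls. Usp29 was higher in every null array (12.1% of all probe sets), by +0.38 ± 0.12 (SE; adjusted p = 0.257, limma). Its other probe set gave +0.32 with overlap. Ddc, the aromatic amino acid decarboxylase beside Grb10, read 7.34, 7.06 and 7.12 in null arrays against 6.84, 6.78 and 6.61 in controls (+0.43 ± 0.12, SE; adjusted p = 0.237, limma). Its other probe set gave +0.033 with overlap. Near Peg10, 1 of 2 probe sets of Sgce (-0.31) and 1 of 2 of Asb4 (-0.44) were lower in every null array (9.89% of all probe sets). The other probe sets of Sgce and Asb4 overlapped. So did the 5 of Ppp1r9a (-0.24 to +0.15) and the 4 of Pon2 (-0.17 to -0.072). Sgce, a sarcoglycan, read 8.32, 8.15 and 8.09 in null arrays against 8.38, 8.50 and 8.60 in controls (adjusted p = 0.298, limma). Asb4, a ubiquitin ligase adaptor, read 8.16, 8.07 and 8.33 on that probe set in null arrays against 8.46, 8.87 and 8.57 in controls (adjusted p = 0.257, limma). Copg2 and Klf14 near Mest gave +0.072 and +0.051 with overlap.

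**Figure D4:**
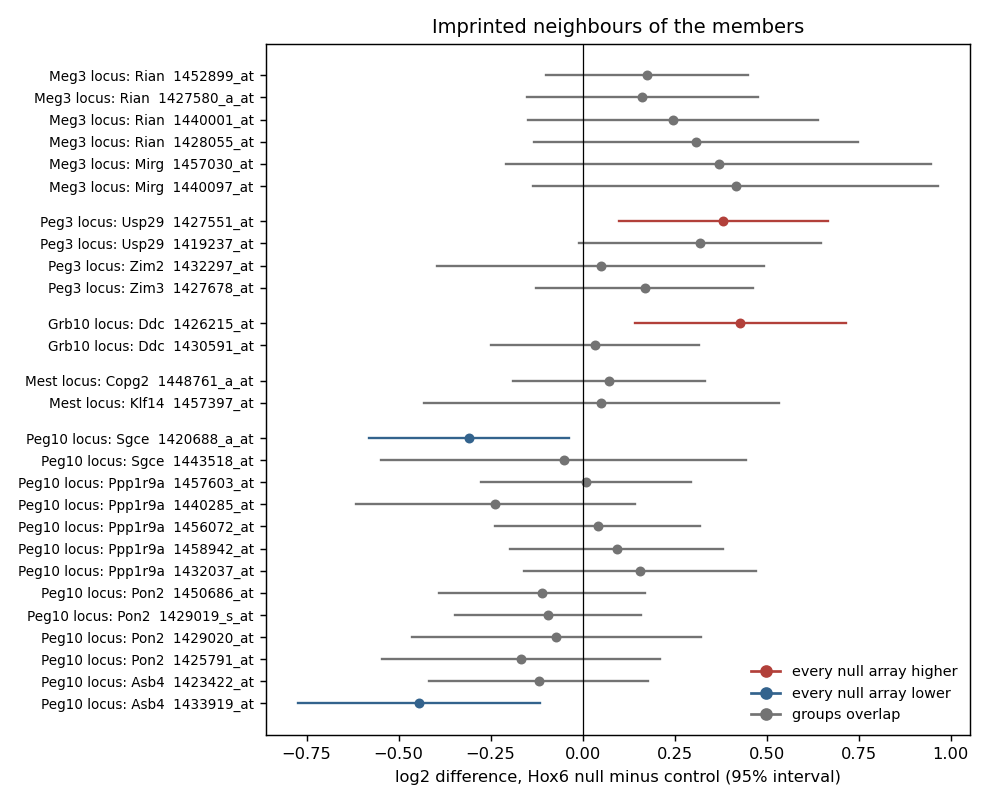
Difference in log2 level, Hox6 null minus control, with 95% intervals (limma), for all probe sets of imprinted genes near Meg3, Peg3, Grb10, Mest and Peg10. Usp29 and Ddc each have 1 probe set with every null array higher (red), Sgce and Asb4 each 1 with every null array lower (blue), and the rest overlap (grey).

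The wider list of other imprinted genes had 36 of 43 members measured and 0 past the threshold (limma), with 4 higher and 2 lower at an unadjusted p under 0.05, against 15.9% of all genes. It held 21 positive and 15 negative differences, with a median of +0.050. The smallest p-values belonged to Slc22a18, a transporter, at +0.61 ± 0.15 (SE), Peg12, a regulator of Wnt signalling, at -0.72 ± 0.19, Ddc and Usp29. Peg12 read 6.36, 6.78 and 7.12 in null arrays against 7.43, 7.45 and 7.53 in controls (adjusted p = 0.218, limma), and Slc22a18 read 6.86, 6.51 and 6.38 against 6.07, 5.83 and 6.01 (adjusted p = 0.212, limma). The other Slc22a18 probe set gave +0.18 with overlap. The 3 imprinted growth genes kept out of the member list did not pass either. On their main probe sets, the fetal growth factor gene Igf2 differed by -0.16 ± 0.11 (SE), the cell cycle inhibitor gene Cdkn1c by -0.10 ± 0.10 and the Igf2 clearance receptor gene Igf2r by +0.029 ± 0.11, with adjusted p of 0.510, 0.629 and 0.913 (limma). The main Igf2 probe set was lower in every null array (9.89% of all probe sets). The other Igf2 probe set was higher in every null array (12.1%), by +0.054 (adjusted p = 0.801, limma). The 2 Igf2 probe sets thus disagreed in direction.

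No gene of 15 that maintain imprints passed (limma). Of these, 8 were positive and 7 negative, from -0.18 to +0.30, with a median of +0.023 and 0 at an unadjusted p under 0.05. The smallest p-values were those of the insulator protein gene Ctcf (+0.19), Dnmt3l (+0.30, a cofactor of DNA methyltransferases that read under 4.8 in every array), Smchd1 (-0.18, a chromatin protein) and the histone methyltransferase gene Setdb1 (+0.13). The adjusted p of Ctcf was 0.419 (limma). Among 10 genes of insulin and IGF reception, through which Grb10 acts, 0 passed (limma) and 3 had an unadjusted p under 0.05, against 15.9% of all genes. These were the adaptors Irs1 (-0.67 ± 0.18, SE) and Irs4 (-0.72 ± 0.22) and the kinase gene Akt1 (+0.31 ± 0.12). Irs4 read under 6 in every array, where a difference carries little weight. Irs1 read 6.26, 6.41 and 6.94 in null arrays against 7.19, 7.12 and 7.31 in controls (adjusted p = 0.224, limma), lower in every null array. The adaptor gene Shc1, next by p, gave -0.19.

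Mean levels of cell type markers differed between the groups and among the null arrays, and in bulk samples fewer cells of a type and less RNA per cell cannot be told apart. The 9 members had a mean level of 11.62 to 11.74 in null arrays and 11.57 to 11.70 in controls, and their summed linear signal was 34908 to 36196 against 33950 to 35566. Pancreatic epithelium markers, of which 19 of 20 were measured and 18 were positive, had mean levels of 9.65, 9.45 and 8.69 in null 1, 2 and 3, against 8.71, 8.58 and 8.60 in the controls. Their summed linear signal was 10196 to 19244 in null arrays and 9535 to 10367 in controls. The defining epithelial marker Epcam read 11.37, 11.16 and 10.48 in null arrays against 10.51, 10.34 and 10.41 in controls, so the labelled tissue held epithelium in every array. In the mean of this list null 1 and null 2 were above the controls, and null 3 lay within the range of the controls. Single markers differed from this mean. Of the 19, 7 were higher in every null array, null 3 included (12.1% of all probe sets), and 0 were lower (9.89%). Among these 7, Pdx1 read 9.97, 9.63 and 8.78 in null arrays against 8.62, 8.24 and 8.27 in controls. For the members, null 3 was the lowest null array on all probe sets of Meg3, Dlk1 and Zim1. On the main probe sets of Dlk1 and Zim1 null 3 lay below every control, and null 2 of Zim1 lay below control 2. Whether these values follow from the epithelial level was not tested. In a fit that carried the epithelial mean as a covariate, 15 of 28 member probe sets were positive and 0 passed (limma). The median over all probe sets was +0.0076 in that fit. The covariate was taken from the same 6 arrays and was high in null 1 and null 2 alone. This fit therefore cannot separate epithelial level from genotype. The direction turned for the main probe sets of Dlk1 (-0.20) and Zim1 (-0.32), the Meg3 main probe set gave +0.067, and 5 of 11 Meg3 probe sets were positive. Over Meg3, Rian and Mirg together, 6 of 17 were then positive and 11 negative, with both Mirg probe sets turned (-0.25 and -0.16). In the same fit the Grb10 probe set without overlap stood at +0.39, that of Peg3 at +0.20 and that of Plagl1 at +0.25. Endocrine markers were positive for 10 of 10 measured (mean levels of 7.54 to 8.24 in null arrays, 7.22 to 7.76 in controls; summed signal 5401 to 7431 and 4645 to 5685).

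Markers of several other cell types had lower mean levels in every null array. Mesenchyme genes were negative for 16 of 17 (mean level 8.43 to 8.74 in null arrays, 9.02 to 9.09 in controls; summed signal 17907 to 21443 and 23050 to 23581). Mesothelium genes were negative for 7 of 9 (6.07 to 6.68 and 7.13 to 7.35; summed signal 1232 to 1781 and 2070 to 2478), and endothelium (7.93 to 8.27 and 8.53 to 8.67; 3453 to 4466 and 5368 to 5795) and macrophage genes (7.32 to 7.84 and 8.31 to 8.37; 2993 to 4024 and 5448 to 5809) for 12 of 12 each. Erythroid genes were negative for 8 of 9 (8.57 to 9.14 and 9.38 to 9.42; 15936 to 21624 and 20055 to 20844). No gene of these lists passed (limma, all probe sets). Hepatoblast marker genes had mean levels of 6.44 to 6.94 in null arrays and 6.31 to 7.87 in controls (summed signal 5115 to 7709 and 5122 to 9098). The top value was that of control 2. The albumin gene Alb read 6.44 to 8.02 in null arrays, against 10.60 in control 2 and 7.25 to 7.98 in the other controls. Genes of neural crest and neurons had means of 6.56 to 6.77 and 6.44 to 6.53 (summed signal 1450 to 2105 and 1596 to 1665). Skeletal muscle (5.15 to 5.36 and 5.04 to 5.44; 596 to 702 and 638 to 827) overlapped between groups, and cartilage genes had means of 7.047 to 7.504 and 6.924 to 7.048 (1968 to 3077 and 1881 to 2097). The part of any of these lists in the values of the members was not tested.

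**Figure D5:**
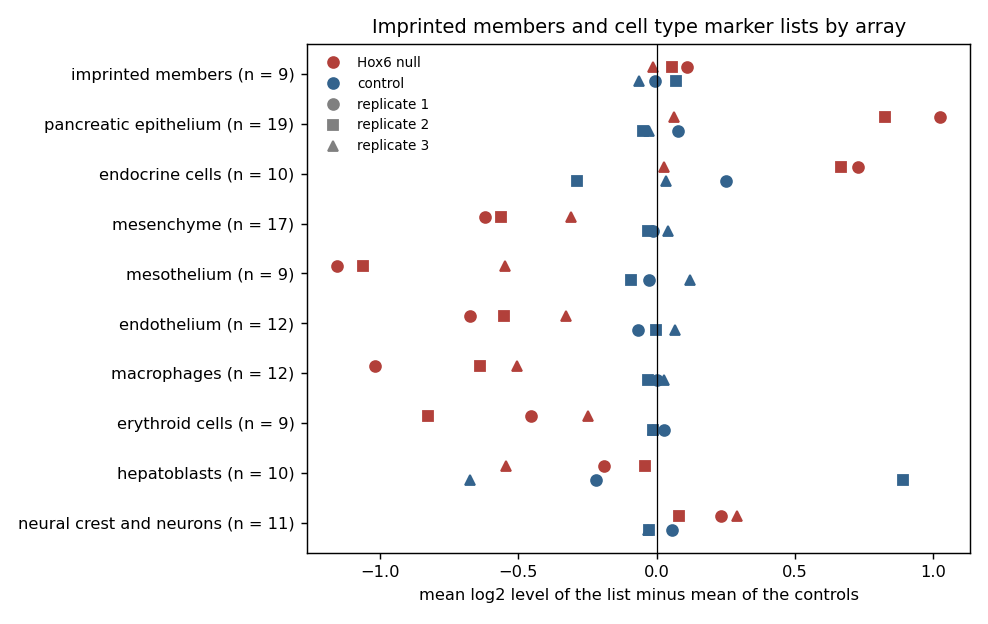
Mean log2 level of each list in each array, relative to the mean of the control arrays, for the 9 measured members and 9 marker lists (number of measured genes in brackets); Hox6 null in red, control in blue, symbols for replicates. The members stay close to the controls, epithelial and endocrine lists are high in null 1 and null 2, and mesenchyme, mesothelium, endothelium and macrophage lists are low in all null arrays.

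Profiles most like those of 2 members were looked up over the 6 arrays, among 18184 other genes, by the root mean square difference of centred levels. The 3 genes given for each have the smallest of these differences, so they lie under the median by the choice itself. For Meg3 they were Hmx1 (0.023), Snhg7 (0.028) and Krt88 (0.029), where the median gene stood at 0.21. For Zim1, which had the widest null range (0.75) among the 9 main probe sets, they were C8g (0.051), Akap14 (0.051) and Gm9946 (0.052), where the median was 0.29. Snhg7 read 8.77, 8.70 and 8.57 in null arrays against 8.39, 8.49 and 8.42 in controls, while the other 5 genes read under 6 in every array, where a difference carries little weight.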

How the data were processed

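Per the labels' protocols, RNA of flash-frozen pancreata was amplified from 10 ng and labelled with biotin. The authors deposited log2 levels, 1 per probe set and array. RMA (background correction, quantile normalization, probe summary), affy and limma stand in the submitters' processing notes with no version. RMA levels are set relative to the other arrays, understate changes of dim probe sets, and carry no detection calls. Array medians were 5.97 to 6.02. The 64 array controls were left out. Of the 45101 probe sets, 34945 had 1 symbol, 932 several and 9160 none.

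Genotype was the only term in a limma 3.58.1 fit (lmFit, eBayes; R 4.3.3) over all probe sets, two-sided, with Benjamini-Hochberg adjustment. The fit was tested on simulated data. Exact permutation of 3 against 3 arrays cannot go below p = 0.1. Members, lists and alternatives were chosen with earlier results of these data known. The text names all members, Igf2, Igf2r, Cdkn1c, up to 4 genes of each other non-marker list by smallest p and 3 like profiles for 2 members; locus neighbours and single markers were added after values were seen. Same-numbered arrays correlated by 0.14, 0.0049 and 0.062 in their deviations from group means, so numbers were not taken as pairs.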

Additional observations from a re-analysis of the deposited data

How the results depend on the processing

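The count of member probe sets past the threshold was 0 under all 16 alternatives, with a smallest adjusted p of 0.0528 (limma), reached for a Meg3 probe set without null 3. Meg3, Peg3, Mest and Nnat kept their direction under all 16 alternatives for the main probe set (Meg3 +0.067 to +0.36, Peg3 +0.042 to +0.16, Mest -0.13 to -0.026, Nnat -0.21 to -0.026). The others turned at least once. Repeated quantile normalization gave Grb10 -0.0078 and Plagl1 -0.026, median centring Plagl1 -0.0092 and array weights Plagl1 -0.0062. The epithelial covariate gave Dlk1 -0.20 and Zim1 -0.32. Leaving out single arrays gave a range of -0.0203 to +0.0178 for Plagl1, -0.0111 to +0.0595 for Grb10, -0.0149 to +0.204 for Peg10 and -0.0488 to +0.328 for Zim1. Dlk1 kept its sign there but stood at +0.0053 without null 2 and +0.22 without null 3. With null 1 left out Dlk1 stood at +0.025. The cause of these turns was not tested. The count over all probe sets, 1 in the main comparison, was 13 with 1 probe set per gene and 16 with dim probe sets left out, where fewer features were tested, 0 with repeated quantile normalization or no variance moderation, 63 with a variance trend and robust prior, 41 with array weights, 11 with the epithelial covariate, and 0 to 1902 when single arrays were left out, the highest without null 3. The fit with the replicate block, which the numbers do not justify as a pairing, left these counts at 1 and 0. With 3 arrays a group, of which the null arrays differ among themselves, small differences of members could not be told from 0.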
